A study of Caenorhabditis elegans with 15 samples.

Results

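The genes described here are 84 acyl-CoA synthetases, dehydrogenases and beta-oxidation enzymes of C. elegans, read in whole worms on microarrays. They were chosen by gene name, with earlier results of these data known. A gene was taken if a probe set was annotated to it and to no other gene, and if its symbol began with acs, acdh, acox, ech, acaa, cpt, maoc or dhs followed by a number. Of 88 genes that matched, acs-2, acdh-8, ech-9 and cpt-3 were not taken, which left 84 of the 17118 genes that have a probe set of their own. Where a gene had several probe sets, the one with the highest mean over the 15 arrays was used. They comprise 22 acyl-CoA synthetases (acs), 5 genes of the carnitine palmitoyltransferase family (cpt), 11 acyl-CoA dehydrogenases (acdh), 5 acyl-CoA oxidases (acox), 9 enoyl-CoA hydratase family genes (ech), 1 MaoC-type hydratase (maoc-1), 1 thiolase (acaa-2) and 30 short-chain dehydrogenases (dhs).

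The study asked which gene expression changes accompany 2 compounds taken to mimic caloric restriction, rapamycin and allantoin, beside a genetic model of it. The 5 groups of 3 arrays were N2 worms on rapamycin, N2 worms on allantoin, eat-2 mutants on rapamycin, eat-2 mutants on vehicle and N2 worms on vehicle. N2 is the wild-type strain, and eat-2 mutants carry a defect in an acetylcholine receptor subunit of the pharynx muscle, pump slowly and take in less food. All worms, controls included, were moved at the L4 stage to plates with 2% DMSO, held at 20 °C and collected after 72 h. No eat-2 worms on allantoin were among the arrays, so allantoin could be compared in N2 only. Whether the 3 samples of a group were separate cultures, and whether the plates held FUDR, an inhibitor of DNA synthesis that stops embryo production, is not stated for the arrays. The p-values therefore measure the spread between these samples only.

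Fatty acids are inert in metabolism until an acyl-CoA synthetase joins them to coenzyme A. Carnitine palmitoyltransferases then help to bring long chains into mitochondria, where rounds of acyl-CoA dehydrogenase, enoyl-CoA hydratase, hydroxyacyl-CoA dehydrogenase and thiolase shorten them. A parallel route in peroxisomes begins with an acyl-CoA oxidase in place of a dehydrogenase, and in C. elegans it also trims the side chains of ascarosides, the worm's pheromones. Short-chain dehydrogenases are a broad family, of which only some, such as dhs-28, act in beta-oxidation, and others act on steroids, retinoids or sugars.

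Values are log2 signals, so that a difference of 1 is a change of 2-fold. A gene was called at the study's threshold when it changed by more than 2-fold at an unadjusted limma p below 0.05. A second count used a Benjamini-Hochberg adjusted p under 0.05 over all 22548 probe sets, whatever the fold. The level of each gene is compared between groups only, since probe sets differ in brightness for reasons other than transcript abundance. An array of whole worms cannot tell fewer cells of a type from less RNA per cell.

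The N2 controls were the least uniform group. Their SD was the largest of the 5 groups for 55 of the 84 genes, with a median SD of 0.312, against 0.115 to 0.134 in the other groups. Over all probe sets, N2 control 1 correlated with the allantoin arrays at 0.9925 to 0.9968 and with N2 control 2 at 0.9669, whereas N2 control 2 correlated with the rapamycin-treated N2 arrays at 0.9823 to 0.9843. The 3 controls also differed in cell type markers. The mean of 8 sperm genes (major sperm proteins and others) was 8.26 on N2 control 1, 10.19 on N2 control 2 and 9.84 on N2 control 3. It lay at 10.51 to 10.88 on rapamycin-treated N2 arrays, 6.96 to 7.94 on allantoin arrays, 6.91 to 7.34 on eat-2 rapamycin arrays and 8.02 to 9.62 on eat-2 control arrays. For 10 oocyte and germline genes the mean was 11.37 to 11.46 on rapamycin-treated N2 arrays, against 11.67 to 12.38 in N2 controls. For 8 hypodermis genes it was 10.09 to 10.42 on rapamycin-treated N2 arrays, against 9.03 to 9.74 in N2 controls. For 7 neuron genes it was 9.56 to 9.63 on rapamycin-treated N2 arrays and 8.55 to 8.70 on allantoin arrays, against 8.89 to 9.51 in N2 controls, and for 6 muscle genes it was 10.10 to 10.55 on rapamycin-treated N2 arrays and 9.46 to 9.55 on allantoin arrays, against 9.31 to 10.21 in N2 controls. For 10 intestine genes it was 10.45 to 10.56 on rapamycin-treated N2 arrays and 9.85 to 10.16 on allantoin arrays, against 10.02 to 10.46 in N2 controls. The part of these shifts in the changes described below was not tested. Where a call on any of the 84 genes was lost without a single array, that array is named. For partner genes no values without single arrays are given.

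In rapamycin-treated N2 worms, 6 of the 84 genes were called higher and 3 lower than in N2 controls. The higher genes were cpt-4, acdh-6, acs-10, acs-6, dhs-16 and acs-20, and the lower genes were acdh-2, dhs-20 and cpt-6. Of all probe sets, 5.15% were called higher and 3.26% lower, so that the 9 genes, 10.7% of the 84, stood beside a background of 8.41%. The median change of the 84 genes was -0.08, against -0.02 over all probe sets. At an adjusted p under 0.05, 7 genes were higher and 1 lower, where 5.71% of all probe sets were higher and 3.67% lower, 9.38% in all. That count was 23 without N2 control 2 and 0 without any 1 of the rapamycin arrays. The split of the calls at the study's threshold also moved with single arrays, with the scaling and with the test. It was 8 higher and 0 lower without N2 control 1, 10 and 1 without N2 control 2, 5 and 6 without N2 control 3, and 6 or 7 higher and 0 or 1 lower without any 1 of the rapamycin arrays. Scaling the arrays to a common median gave 5 higher and 5 lower. The unmoderated test of the methods, run in place of limma, gave 6 higher and 0 lower. The lower calls on acdh-2, cpt-6 and dhs-20 were all lost in it. The arrays of the groups did not overlap for 18 genes above and 14 below the controls, where 19.1% of all probe sets lay above and 20.8% below, 39.9% in all.

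**Figure D1:**
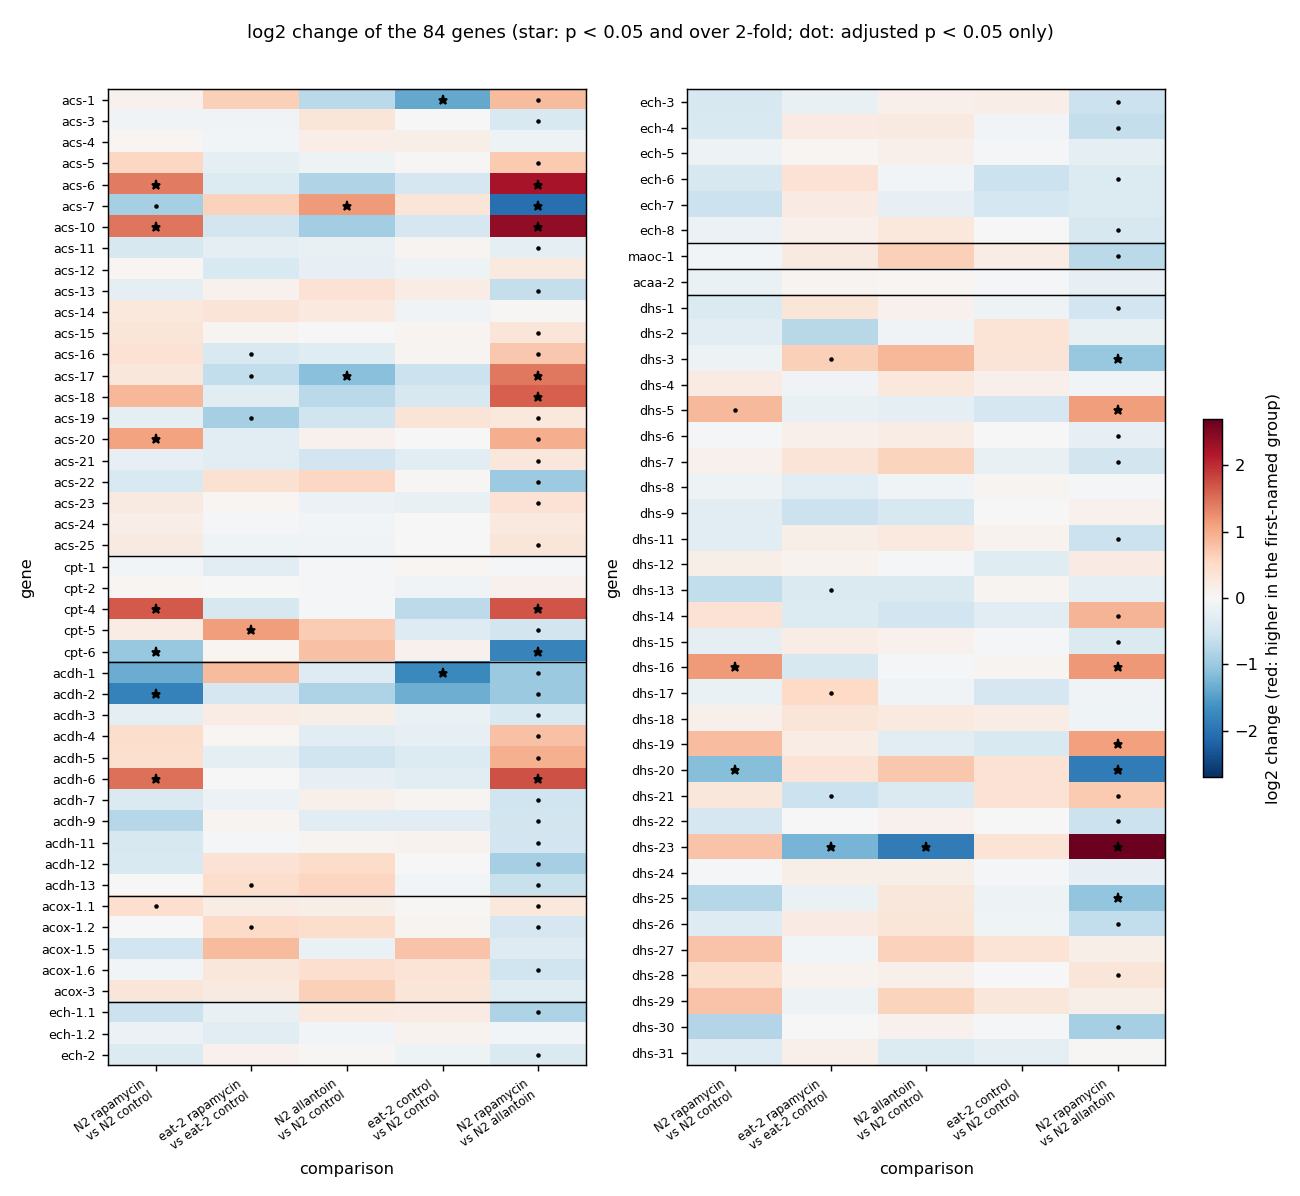
Log2 change of each of the 84 genes (rows, by subfamily) in the 5 pair comparisons (columns), with red for higher and blue for lower in the first-named group. A star marks a call at the study's threshold and a dot an adjusted p under 0.05 without that call. The rapamycin against allantoin column holds the most marks, 15 stars, and the eat-2 control column holds 2.

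Among the synthetases, acs-10 and acs-6 had the largest positive changes in rapamycin-treated N2 worms. The log2 signals of acs-10 were 7.88, 7.52 and 7.97 in rapamycin-treated N2 worms, against 5.63, 7.0 and 6.43 in N2 controls. All 3 treated arrays lay above all 3 controls, of which control 1 was the lowest. The difference was 1.44 ± 0.34 (SE), or 2.71-fold, with an adjusted p of 0.0518. For acs-6 the signals were 7.88, 7.65 and 7.87 in rapamycin-treated N2 worms, against 5.69, 6.87 and 6.61 in N2 controls. It differed by 1.41 ± 0.30, with an adjusted p of 0.0438, and again N2 control 1 lay below the other two. Leaving out N2 control 1 gave 1.08 for acs-10 and 1.06 for acs-6, both still called at the study's threshold.

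The other groups held both genes at a lower level. The signals of acs-10 were 5.47, 5.22 and 5.53 on allantoin, 5.50, 5.42 and 5.33 in eat-2 worms on rapamycin, and 5.73, 6.37 and 5.63 in eat-2 controls. The eat-2 control that stood above its group, replicate 2, was also the one with the highest sperm marker mean, 9.62 against 8.06 and 8.02. It had the highest hypodermis and neuron means of its group too, and the lowest oocyte and germline, intestine and muscle means. Their part in the level of acs-10 was not tested. The genes with the array profile most like that of acs-10 over the 15 arrays were acs-6 (Pearson's r = 0.99), acs-18 (r = 0.97) and acdh-6 (r = 0.94), all read on the same arrays. The signal of acs-18 was 6.21, 6.21 and 6.95 in rapamycin-treated N2 worms, against 4.97, 6.05 and 5.66 in N2 controls, with no overlap and a difference of 0.90 that was not called.

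**Figure D2:**
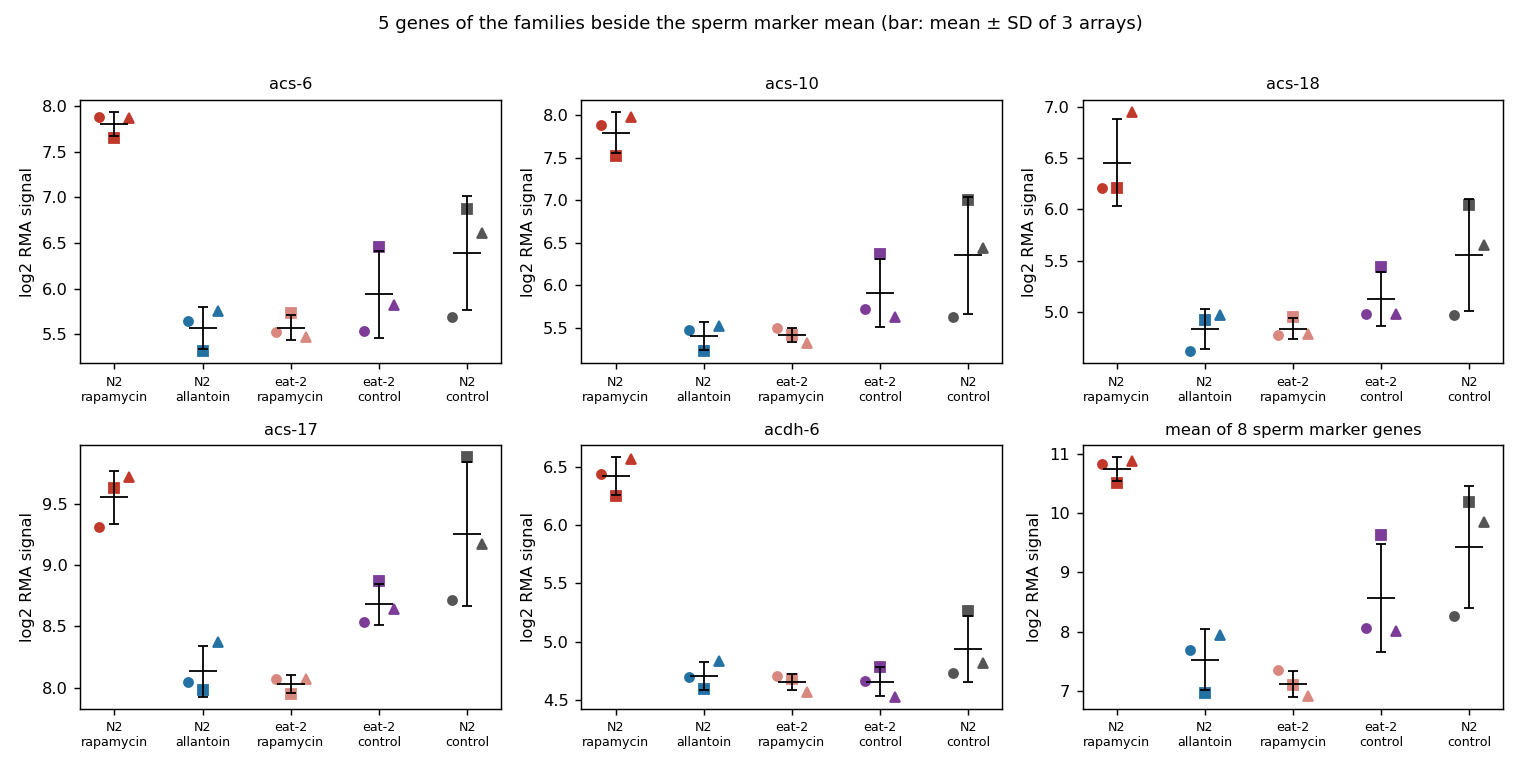
Log2 signal of 5 genes and the mean of 8 sperm marker genes on each array by group, with circles, squares and triangles for replicates 1, 2 and 3 and bars for the mean ± SD of 3 arrays. Rapamycin-treated N2 arrays of acs-10 sit between 7.52 and 7.97, and N2 control 1, at 5.63, lies below N2 controls 2 and 3, as it does for the sperm mean.

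The synthetases acs-20 and acs-22 are related to mammalian fatty acid transport protein 4 and serve the surface barrier of the cuticle. Of them, acs-20 rose in N2 worms on rapamycin. The signals of acs-20 were 9.63, 9.96 and 9.97 in rapamycin-treated N2 worms, against 9.01, 8.95 and 8.32 in N2 controls. Every treated array was above every control, with a difference of 1.1 ± 0.21 and an adjusted p of 0.0372. N2 control 3 was the lowest, and without it the change was 0.88, below 2-fold, as it also was after scaling to a common median, at 0.99. The second probe set of acs-20 gave 1.05. For acs-22 the signals were 8.87, 8.93 and 8.85 in rapamycin-treated N2 worms, against 9.69, 9.33 and 8.88 in N2 controls. These overlapped, and the difference of -0.42 was not called.

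Another synthetase, acs-7, which is needed to make some ascarosides, fell in N2 worms on rapamycin and was called higher on allantoin. Its signals were 6.74, 6.58 and 6.62 on rapamycin and 8.94, 8.71 and 8.40 on allantoin, against 7.99, 7.35 and 7.29 in N2 controls. The 3 groups did not overlap. The rapamycin difference was -0.90 ± 0.20 with an adjusted p of 0.0461, under 2-fold. The allantoin difference was 1.14 ± 0.23, past the study's threshold with an adjusted p of 0.236. The nearest profiles to that of acs-7 over the 15 arrays were those of acdh-12 (r = 0.95), acs-22 (r = 0.93) and dhs-20 (r = 0.91). Over all 22 synthetases, 15 had a positive change under rapamycin, with a median of 0.21.

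Of the cpt genes, cpt-1 and cpt-2, which act in the carnitine shuttle, were not called in N2 worms on rapamycin. The signals of cpt-1 were 10.52, 10.66 and 10.59 in rapamycin-treated N2 worms, against 10.70, 10.60 and 10.69 in N2 controls. By contrast, cpt-4 showed the largest rise of the 84 genes. Its signals were 8.61, 9.05 and 8.82 in rapamycin-treated N2 worms, against 7.24, 7.44 and 6.83 in N2 controls. No array overlapped, and the difference of 1.66 ± 0.19, or 3.15-fold, had an adjusted p of 0.0157. A second probe set of cpt-4 rose by 1.41.

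Another family member, cpt-6, was called lower. Its signals were 6.76, 6.93 and 6.75 in rapamycin-treated N2 worms, against 8.53, 7.11 and 7.86 in N2 controls. The treated arrays lay close together below controls that spanned more than 1 log2 unit, and the difference was -1.02 ± 0.34 with an adjusted p of 0.0982. The call was lost without N2 control 1, at -0.68, without N2 control 3, at -1.01, and without rapamycin replicate 1 or 3, at -0.997 and -0.988.

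Among the acyl-CoA dehydrogenases, acdh-6 rose and acdh-2 was called lower. The signals of acdh-6 were 6.44, 6.25 and 6.57 in rapamycin-treated N2 worms, against 4.73, 5.26 and 4.81 in N2 controls. The arrays stood well apart, by 1.48 ± 0.17 with an adjusted p of 0.0157. In the other 4 groups the gene lay between 4.53 and 5.26, near 5.14, below which the dimmest 25% of probe sets lie, so that the size of the rise is uncertain. The signals of acdh-2 were 5.28, 5.12 and 5.39 in rapamycin-treated N2 worms, against 8.52, 7.37 and 5.38 in N2 controls. They overlapped at control 3, and the difference of -1.83 ± 0.74 had an adjusted p of 0.147. A second probe set of acdh-2 gave -1.64 and was called, without overlap and with an adjusted p of 0.136. Its treated mean was 4.64, below the 5.14 bound of dim probe sets. The call on acdh-2 was lost without N2 control 1, at -1.11, without N2 control 2, at -1.68, and without any 1 of the rapamycin arrays. Without N2 control 3 the difference was -2.68.

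Of the others, acdh-11, which acts in heat adaptation by holding down the desaturase gene fat-7, and acdh-7 and acdh-12, the medium-chain and very-long-chain homologues, had negative changes between -0.44 and -0.40. None of the 3 was called. All 9 ech genes had negative changes under rapamycin, between -0.58 and -0.13 with a median of -0.40, and none was called. Arrays of 4 of them, ech-1.2, ech-2, ech-3 and ech-4, lay wholly below the controls, where 20.8% of all probe sets did. The homologue of the trifunctional protein's alpha subunit, ech-1.2, had 11.16, 11.16 and 11.25 in rapamycin-treated N2 worms, against 11.35, 11.31 and 11.38 in N2 controls. The mitochondrial partner genes listed for comparison, such as the thiolase kat-1, had a median of -0.35, with 14 of 15 negative and 1 lower at an adjusted p under 0.05. Scaling the arrays to a common median shifts the median of all probe sets in this comparison by -0.10.

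In the peroxisomal set, acox-1.1, an oxidase that shortens ascaroside side chains, rose. Its signals were 9.07, 9.07 and 9.04 in rapamycin-treated N2 worms, against 8.68, 8.62 and 8.52 in N2 controls. The 3 treated arrays agreed within 0.05, and the difference was 0.45 ± 0.09, below 2-fold, with an adjusted p of 0.0393. The next enzymes of that route were not called. The change was -0.08 for maoc-1 and 0.47 for dhs-28, which had signals of 12.01, 11.91 and 11.94 in rapamycin-treated N2 worms, against 11.56, 11.80 and 11.07 in N2 controls. Of 18 peroxisomal partner genes, 10 had a positive change, none was called at the study's threshold and 1 was lower at an adjusted p under 0.05. Among acyl-CoA binding proteins, which hold the products of the synthetases, acbp-3 was higher by 1.76 ± 0.35, with an adjusted p of 0.0389. Its signals in N2 controls were 8.50, 8.57 and 7.26, with control 3 the lowest.

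Of the short-chain dehydrogenases, dhs-16, which acts on steroids in the synthesis of the hormone dafachronic acid, rose. Its signals were 7.21, 6.87 and 6.90 in rapamycin-treated N2 worms, against 5.88, 6.10 and 5.57 in N2 controls. There was no overlap, and the difference was 1.14 ± 0.17 with an adjusted p of 0.0246. A further gene, dhs-5, was higher by 0.87 with an adjusted p of 0.0407. The call on dhs-20 was of the less steady kind, with signals of 8.07, 7.95 and 7.66 in rapamycin-treated N2 worms, against 9.47, 9.57 and 8.08 in N2 controls. It differed by -1.15 ± 0.40 with an adjusted p of 0.111. The call was lost without N2 control 1 or 2, at -0.93 and -0.88, and without any 1 of the rapamycin arrays.

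On allantoin, 1 of the 84 genes was called higher and 2 lower than in N2 controls, against 0.891% of all probe sets higher and 3.16% lower, 4.05% in all. These were acs-7, given above, and acs-17 and dhs-23. By limma, 0 of the 84 genes and 0 of all probe sets (0%) passed an adjusted p under 0.05. The median change of the 84 genes was 0.04, against 0.05 over all probe sets, and the common-median scaling shifts the latter by 0.10. At an unadjusted p under 0.05 there were 12 genes higher and 7 lower, where 9.5% of all probe sets were higher and 10.3% lower. The count at the study's threshold was 7 without N2 control 1, 1 without N2 control 2 and 6 without N2 control 3, and that at an adjusted p under 0.05 was 22 without N2 control 1.

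The synthetase acs-17 had signals of 8.05, 7.98 and 8.37 on allantoin, against 8.72, 9.88 and 9.17 in N2 controls. Allantoin arrays lay below all controls, by -1.12 ± 0.30 with an adjusted p of 0.236. N2 control 2 stood highest, and without it the difference was -0.81, below 2-fold. A second probe set of acs-17 gave -1.08 and was called, also with an adjusted p of 0.236. Among the N2 controls, N2 control 2 also had the highest sperm, hypodermis, muscle, neuron and intestine marker means and the lowest oocyte and germline mean. For dhs-23 the signals were 6.69, 6.54 and 8.63 on allantoin, against 9.31, 9.98 and 8.21 in N2 controls. Allantoin replicate 3 lay within the control range, and the difference was -1.88 ± 0.69. The call was lost without N2 control 1 or 2, at -1.81 and -1.47, and without allantoin replicate 1 or 2, at -1.58 and -1.51. It was also lost in the unmoderated test and with the replicate number fitted as a block. Without allantoin replicate 3 the difference was -2.55. Of the 8 sperm genes, 7 were called lower in this comparison, as were 1 of 7 neuron genes and 1 of 6 muscle genes. The part of these cell type markers in the calls was not tested.

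The acyl-CoA oxidases had mostly positive changes on allantoin. Arrays of 4 of the 5, namely acox-1.1, acox-1.2, acox-1.6 and acox-3, lay above all controls, where 16.2% of all probe sets did, and none was called. The largest of these was acox-3, a peroxisomal oxidase of ascaroside side chains, with 11.15, 11.05 and 10.66 on allantoin, against 10.23, 10.55 and 10.12 in N2 controls. It differed by 0.65 with an adjusted p of 0.236. For dhs-3, a protein of intestinal lipid droplets, the signals were 10.42, 10.40 and 9.75 on allantoin, against 9.66, 9.34 and 8.88 in N2 controls. All 3 allantoin arrays were above the controls, and the change of 0.90 was under 2-fold.

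**Figure D3:**
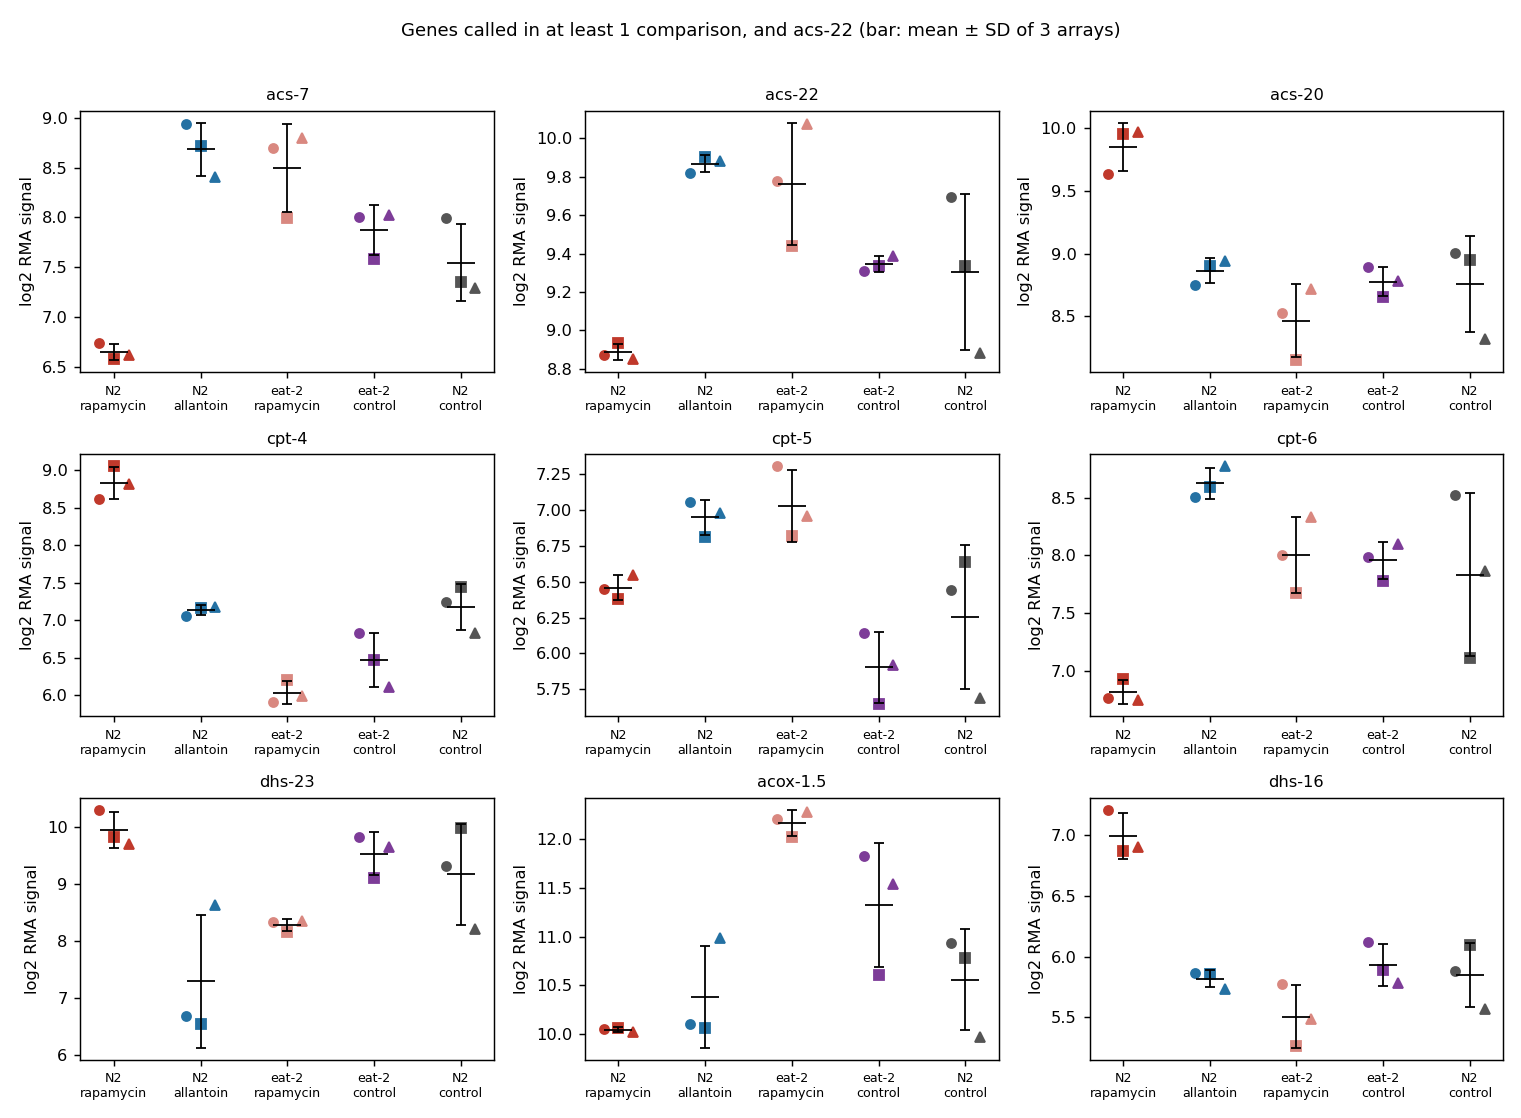
Log2 signal of 9 genes on each array by group, with circles, squares and triangles for replicates 1, 2 and 3 and bars for the mean ± SD of 3 arrays. The rapamycin-treated N2 arrays of cpt-4 sit between 8.61 and 9.05, above every other array, and those of acs-7 sit between 6.58 and 6.74, below every other array.

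Set against each other, the 2 compounds gave the most calls. Between N2 worms on rapamycin and on allantoin, 10 of the 84 genes were called higher on rapamycin and 5 lower, against 11.9% of all probe sets higher and 8.53% lower, 20.4% in all. At an adjusted p under 0.05 there were 25 genes higher and 35 lower, where 27.8% of all probe sets were higher and 33.5% lower, 61.3% in all. The median was -0.21 for the 84 genes and -0.07 for all probe sets. Scaling to a common median shifts the latter by -0.20, and it gave splits of 7 higher and 11 lower at the study's threshold and 18 higher and 48 lower at an adjusted p under 0.05. Both groups are set against each other here without the N2 controls, so the spread of those controls does not enter.

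The synthetases, with 4 higher and 1 lower, had a median of 0.31. The difference was 2.38 ± 0.14 for acs-10, 2.23 for acs-6, 1.61 for acs-18, 1.42 for acs-17 and -2.04 ± 0.13 for acs-7. Marker lists of several cell types moved in this comparison too, and their part in the changes of the 84 genes was not tested. In the sperm list, 7 of 8 genes were called higher on rapamycin, with a list median of 3.49. In the oocyte and germline list 7 of 10 genes were called lower, with a median of -1.26. In the hypodermis list 6 of 8 were called higher and 1 lower. Of the neuron genes 4 of 7 were called higher, of the muscle genes 2 of 6 and of the intestine genes 3 of 10. All 9 ech genes were lower on rapamycin in sign, 6 of them at an adjusted p under 0.05, with a median of -0.39. The MaoC-type hydratase maoc-1, which follows the oxidase step in the peroxisome, had signals of 11.99, 11.81 and 11.85 on rapamycin, against 12.64, 12.65 and 12.54 on allantoin. They lay apart by -0.73 with an adjusted p of 8.6e-05.

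Of the acyl-CoA dehydrogenases, 3 were higher and 8 lower at an adjusted p under 0.05. The higher ones were acdh-6, at 1.72, and acdh-4 and acdh-5. The carnitine family split, with cpt-4 at 1.70 and cpt-6 at -1.81. The signals of cpt-6 were 6.76, 6.93 and 6.75 on rapamycin, against 8.50, 8.60 and 8.77 on allantoin. Arrays within each group lay close together, and the adjusted p was 1.38e-06. In the dhs family the called genes were dhs-23 at 2.65 ± 0.49, dhs-16 at 1.17, dhs-5 at 1.14, dhs-19 at 1.11, dhs-20 at -1.88, dhs-25 at -1.07 and dhs-3 at -1.03. After common-median scaling dhs-16, dhs-19 and dhs-5 fell just short of 2-fold, at 0.97, 0.91 and 0.93. So did dhs-25 without rapamycin replicate 2, at -0.99, and dhs-3 without allantoin replicate 1 or 2, at -0.91 and -0.92. Without allantoin replicate 3, dhs-23 differed by 3.32. Among partner genes, acbp-3 was higher by 1.46 and pmp-1, an ABC transporter of the peroxisomal membrane, by 1.23. The allantoin arrays of pmp-1 were at 6.69, 6.77 and 7.87.

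Few genes were called between eat-2 controls and N2 controls. None of the 84 genes was called higher and 2 were called lower, acdh-1 and acs-1, against 0.705% of all probe sets higher and 0.812% lower, 1.52% in all. By limma, 0 of the 84 genes passed an adjusted p under 0.05, and 0.0399% of all probe sets did, 0.0355% higher and 0.00443% lower. At an unadjusted p under 0.05, acox-3 was the only higher gene, at 0.32, and 6 were lower, where 4.76% of all probe sets were higher and 2.83% lower. The median change was -0.01. Of the hypodermis genes, 3 of 8 were called lower, with a list mean of 8.55 to 8.80 on eat-2 control arrays, against 9.03 to 9.74 in N2 controls. The part of that shift in these calls was not tested.

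The acyl-CoA dehydrogenase acdh-1 takes part in a shunt that breaks down propionate without vitamin B12. Its signals were 10.15, 10.52 and 10.29 in eat-2 controls, against 12.92, 12.65 and 10.63 in N2 controls. N2 control 3 lay close to the eat-2 arrays and the other two more than 2 log2 units above them. The difference was -1.75 ± 0.60, or 3.36-fold lower in eat-2 controls, with an adjusted p of 0.586. The call was lost without N2 control 1, at -1.32, without N2 control 2, at -1.46, and without any 1 of the eat-2 control arrays. Without N2 control 3 the difference was -2.47.

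N2 control 3 also lay below the other N2 controls for ech-6, hphd-1 and hach-1, further genes of the shunt, but not for alh-8. For ech-6, its hydratase, the signals were 11.61, 11.85 and 11.66 in eat-2 controls, against 12.57, 12.41 and 11.89 in N2 controls. All eat-2 controls were below all N2 controls, and the difference was -0.59 ± 0.19. A partner gene of the same shunt, hphd-1, was called lower, by -1.07 ± 0.35 with an adjusted p of 0.581. For hach-1, a hydrolase of the shunt, the difference of -0.42 was not called. The dehydrogenase alh-8 had 12.48, 12.44 and 12.51 in eat-2 controls, against 12.31, 12.63 and 12.46 in N2 controls, which overlapped, with a difference of 0.01. A partner gene outside the shunt, pmp-5, was called lower by -1.28. Over the 15 arrays the genes with profiles most like that of acdh-1 were ech-6 (r = 0.95), ech-7 (r = 0.83) and acdh-2 (r = 0.80).

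The synthetase acs-1, which serves the use of branched-chain fatty acids, had signals of 8.72, 8.68 and 8.65 in eat-2 controls, against 10.86, 10.41 and 8.90 in N2 controls. The eat-2 arrays spanned less than 0.1 and N2 control 3 lay near them. The difference was -1.38 ± 0.49 with an adjusted p of 0.599. The call was lost without N2 control 1, at -0.98, without N2 control 2, at -1.2, and without any 1 of the eat-2 control arrays. A second probe set of acs-1 gave -1.18, which was not called.

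**Figure D4:**
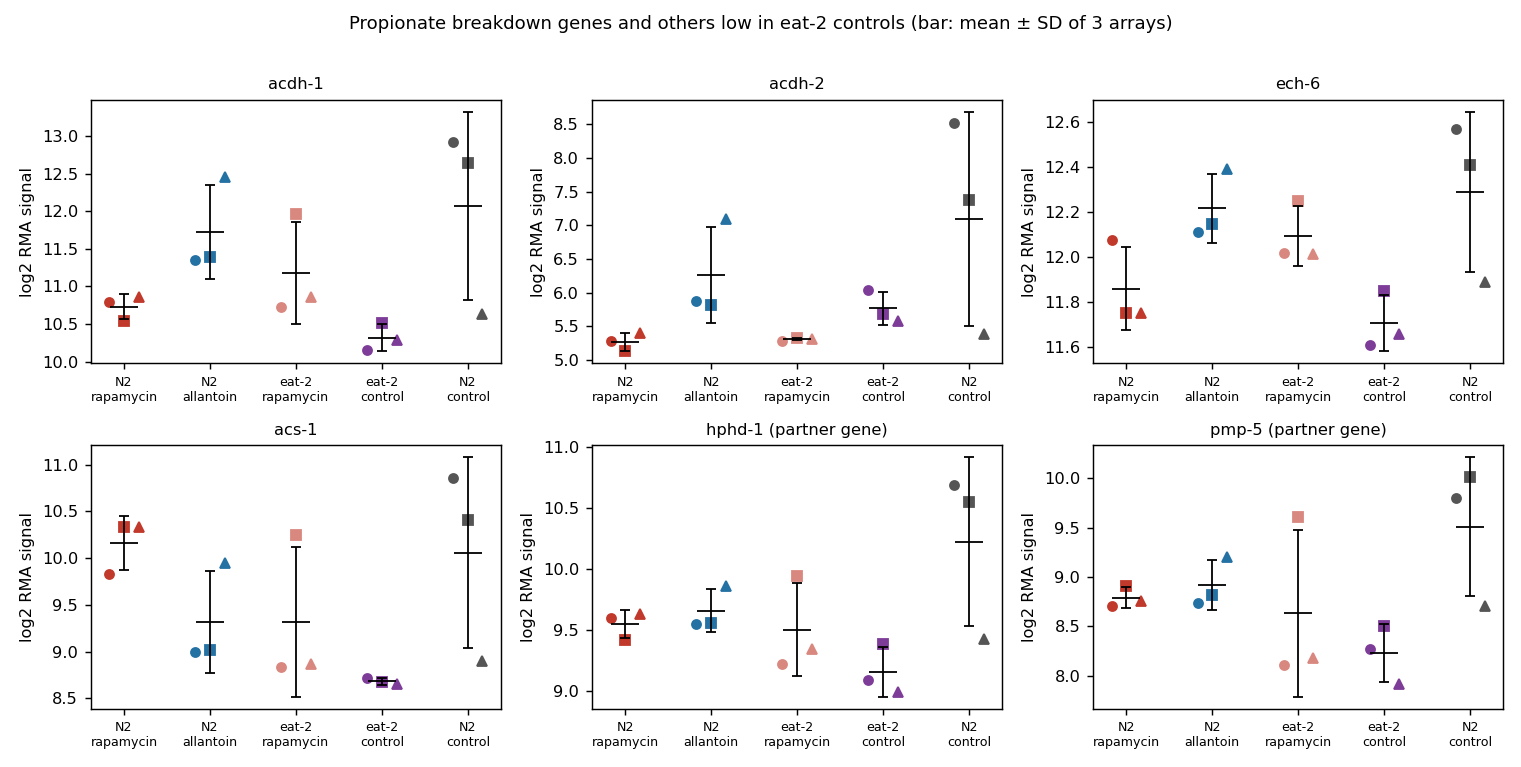
Log2 signal of acdh-1, acdh-2, ech-6 and acs-1 and of the partner genes hphd-1 and pmp-5 on each array by group, with circles, squares and triangles for replicates 1, 2 and 3 and bars for the mean ± SD of 3 arrays. In each panel N2 control 3 lies below N2 controls 1 and 2; for acdh-1 the N2 controls are at 12.92, 12.65 and 10.63.

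In eat-2 worms, rapamycin was set against the eat-2 controls. One gene of the 84 was called higher, cpt-5, and 1 lower, dhs-23, against 1.15% of all probe sets higher and 1.91% lower, 3.06% in all. At an adjusted p under 0.05 there were 5 higher and 6 lower, where 6.8% of all probe sets were higher and 7.03% lower, 13.8% in all. Scaling to a common median gave 11 higher and 4 lower, and leaving out eat-2 rapamycin replicate 2 gave 12 higher and 5 lower. The count of 11 was 7 without eat-2 control 1, 5 without eat-2 control 3 or eat-2 rapamycin replicate 1, and 17 without eat-2 rapamycin replicate 2. The higher genes were cpt-5, acdh-13, acox-1.2, dhs-3 and dhs-17, and the lower genes were acs-16, acs-17, acs-19, dhs-13, dhs-21 and dhs-23. The median was 0.05, against 0.03 over all probe sets.

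The signals of cpt-5 were 7.30, 6.82 and 6.96 in eat-2 worms on rapamycin, against 6.14, 5.65 and 5.92 in eat-2 controls. There was no overlap, and the difference was 1.12 ± 0.17 with an adjusted p of 0.00953. It fell to just under 2-fold without eat-2 control 2, at 0.996, or eat-2 rapamycin replicate 1, at 0.986. For dhs-23 the signals were 8.33, 8.15 and 8.35 in eat-2 worms on rapamycin, against 9.82, 9.10 and 9.66 in eat-2 controls. The treated arrays were the tighter of the 2 groups, and the difference was -1.25 ± 0.18 with an adjusted p of 0.00933.

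The synthetase acs-19, whose sequence relates it to acetyl-CoA synthetases, had 11.80, 11.85 and 11.81 in eat-2 worms on rapamycin, against 12.88, 12.62 and 12.65 in eat-2 controls. It had the lowest adjusted p of the 84 genes here, 0.0036, with a difference of -0.90 ± 0.09. The lipid droplet gene dhs-3 had 10.32, 10.20 and 10.38 in eat-2 worms on rapamycin, against 9.79, 9.59 and 9.58 in eat-2 controls. It rose by 0.65 ± 0.09 with an adjusted p of 0.00797, and its second probe set by 0.70. The sugar reductase gene dhs-21 was lower, by -0.59 with an adjusted p of 0.0338. All 5 acox genes had positive changes, between 0.19 and 0.85 with a median of 0.31. The largest, acox-1.5, had 12.21, 12.03 and 12.28 in eat-2 worms on rapamycin, against 11.83, 10.60 and 11.54 in eat-2 controls. The groups did not overlap, and the adjusted p was 0.11.

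Of the 22 synthetases, 15 had a negative change in eat-2 worms on rapamycin and arrays of 9 lay below the controls, where 16.6% of all probe sets did. None was called at the study's threshold. The lowest adjusted p after that of acs-19 was that of acs-17, 0.0109, at -0.65. Its signals were 8.07, 7.95 and 8.07 in eat-2 worms on rapamycin, against 8.54, 8.87 and 8.64 in eat-2 controls. The groups stood apart. In this comparison 7 of the 8 sperm genes were called lower and 3 of the 8 hypodermis genes higher. Their part in the changes of the synthetases was not tested. Among partner genes, hacd-1, a hydroxyacyl-CoA dehydrogenase, was called lower by -1.25 ± 0.13 with an adjusted p of 0.0038.

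The rapamycin changes of the 2 strains share no arrays, so they can be set side by side and their difference tested. The sign was the same in both strains for 30 of the 84 genes (35.7%), against 43% of all probe sets. The test of the difference, eat-2 change minus N2 change over 12 arrays, called 5 genes positive and 9 negative, against 5.25% of all probe sets positive and 8.41% negative, 13.7% in all. At an adjusted p under 0.05 there were 14 positive and 14 negative, where 12.1% of all probe sets were positive and 12.4% negative, 24.4% in all. The count of 28 was 14 to 18 without rapamycin-treated N2 replicate 2 or 3, any 1 of the eat-2 controls, or eat-2 rapamycin replicate 1 or 3. The median was 0.18 for the 84 genes and 0.04 for all probe sets. Common-median scaling shifts the latter by 0.18 and gave 9 positive and 8 negative calls at the study's threshold, and 24 positive and 10 negative at an adjusted p under 0.05. Without N2 control 3 there were 10 positive and 9 negative calls at the study's threshold.

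**Figure D5:**
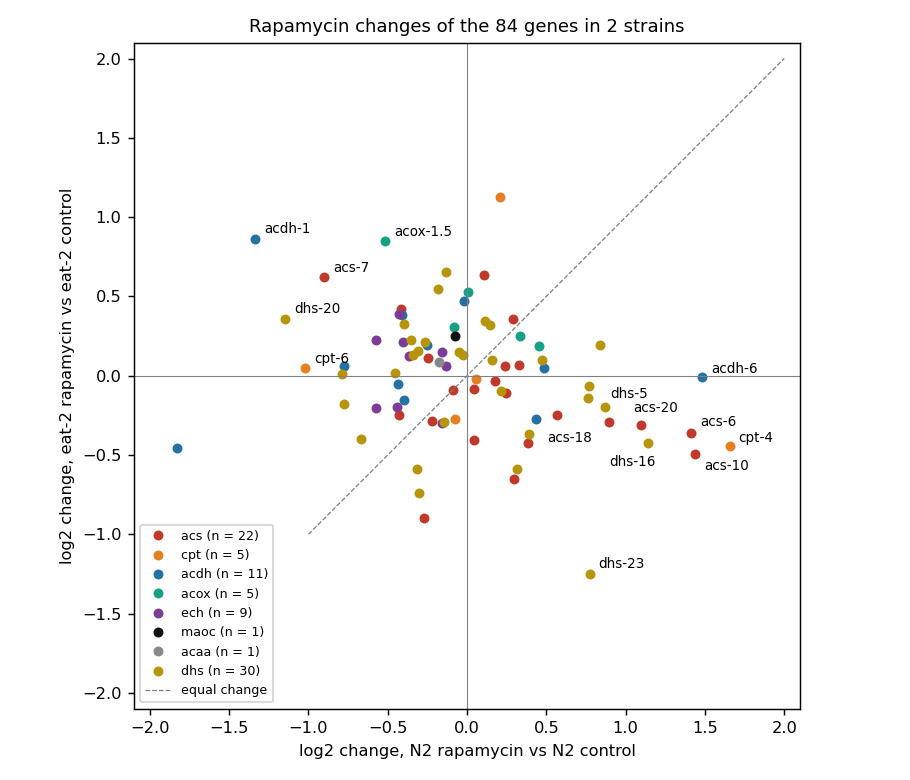
Log2 change by rapamycin of the 84 genes in eat-2 worms (vertical axis) and in N2 worms (horizontal axis), a point for each gene, coloured by subfamily; names mark the 14 genes called in the test of the difference. The gene farthest to the right, cpt-4, is at 1.66 in N2 and -0.44 in eat-2 worms.

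The largest negative difference was that of cpt-4, -2.1 ± 0.29, with an adjusted p of 0.00204. Its signals were 5.90, 6.20 and 5.99 in eat-2 worms on rapamycin and 6.83, 6.47 and 6.11 in eat-2 controls, which overlapped. For acs-10 the difference was -1.93 ± 0.43 and for acs-6 it was -1.77 ± 0.41. The others were acs-18, acs-20, acdh-6, dhs-5, dhs-16 and dhs-23, between -2.02 and -1.07. With the exception of acdh-6, where the eat-2 change was -0.01, the eat-2 changes of these 9 genes lay between -1.25 and -0.20, and the N2 changes of all 9 were positive. In the same test 7 of 8 sperm genes were called negative, with a list median of -3.13. Of 8 hypodermis genes, 3 were called negative and 1 positive. Of 10 oocyte and germline genes, 5 were called positive, with a list median of 0.995. The neuron, muscle and intestine lists had 1 gene each called negative. The part of these lists in the differences was not tested.

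The positive differences were those of acdh-1, acs-7, dhs-20, acox-1.5 and cpt-6. For acs-7 the change was 0.62 in eat-2 worms and -0.90 in N2 worms, a difference of 1.52 ± 0.33 with an adjusted p of 0.0114. For acdh-1 the change was 0.86 in eat-2 worms and -1.34 in N2 worms, neither called, and the difference of 2.2 ± 0.73 had an adjusted p of 0.0502. Without N2 control 3 that difference was 2.92. The call on cpt-6, at 1.07, was lost without N2 control 1, at 0.72, without eat-2 control 2, at 0.98, or without eat-2 rapamycin replicate 3, at 0.91. The unmoderated test lost it as well. The negative call on acs-18 was lost without N2 control 1, at -0.90, or rapamycin-treated N2 replicate 3, at -0.94. That on dhs-5 was lost without N2 control 3, at -0.95, rapamycin-treated N2 replicate 2, at -0.996, or eat-2 rapamycin replicate 2, at -0.89. After common-median scaling it was lost too, at -0.88.

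A number of the genes with a known role were called in none of the pair comparisons at the study's threshold. They include acs-3, which acts with the nuclear receptor nhr-25, acs-4, which serves the germline, the thiolase acaa-2, the carnitine shuttle genes cpt-1 and cpt-2, and ech-4, an enoyl-CoA isomerase. The level of acaa-2 lay between 10.87 and 11.29 over all 15 arrays and that of cpt-2 between 11.29 and 11.57. The level of acs-4 lay between 10.59 and 11.19. Changes under 2-fold were found among these genes. The level of ech-4 was 10.57 to 10.70 on rapamycin and 11.23 to 11.38 on allantoin in N2 worms. Between the same groups a second probe set of acs-4 gave -0.52 with an adjusted p of 0.00862. That of acaa-2 gave -0.30 with an adjusted p of 0.0172. The arrays of the chosen probe sets of acs-4 and acaa-2 overlapped there. By position, 23 of the 84 genes lie on chromosome V, 15 on I, 14 on II, 11 each on III and IV, and 10 on X.

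The 9 genes listed as regulators, among them nhr-49 and mdt-15, gave no call at the study's threshold in any comparison. Their median change was -0.15 in N2 worms on rapamycin and -0.09 on allantoin. At an adjusted p under 0.05, 2 of the 9 were lower in eat-2 worms on rapamycin, where 7.03% of all probe sets were. Between rapamycin and allantoin 2 were higher and 2 lower, where 27.8% of all probe sets were higher and 33.5% lower. In the test of the difference between strains 1 was positive and 1 negative, against 12.1% and 12.4% of all probe sets. None passed in the other comparisons. Of all 48 partner genes measured, 1 was called higher and 0 lower in N2 worms on rapamycin, where 8.41% of all probe sets were called. On allantoin 0 were called, against 4.05%, and 2 were called lower in eat-2 controls, against 1.52%. In eat-2 worms on rapamycin 1 was called lower, against 3.06%. Between rapamycin and allantoin 2 were called higher and 0 lower, against 20.4% in all. There 28 passed an adjusted p under 0.05, against 61.3%.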

How the data were processed

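RNA of whole worms, 3 arrays for each of 5 groups, was read on Affymetrix C. elegans arrays. The log2 values deposited by the authors, for 22625 probe sets on 15 arrays, came from RMA as run in Affymetrix Expression Console. Versions and the genome build are not given in the sources used here. The 77 manufacturer control probe sets were left out. Array medians ran from 6.79 to 7.06, and precision is limited by the 3 arrays in a group. Each pair of groups was fitted with limma 3.58.1 (R 4.3.3) on its own 6 arrays, and the interaction on 12, two-sided. Fits were tested on simulated data.

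Gene names are those of the platform annotation, and all 84 genes matched RefSeq with no changed symbol. Of the chosen probe sets, 39 have names that mark possible cross-hybridisation with related transcripts, those of acs-18, acs-20, acs-22, acox-1.5, cpt-4, cpt-6 and dhs-20 among them. A probe set shared by acox-1.3 and acox-1.4 was left out. The mean level of 6 genes was below 5.14, the upper limit of the dimmest 25%, with acdh-5, acdh-6 and acox-1.2 among them. Genes were named when called, when among the 3 higher or 3 lower of lowest adjusted p under 0.05 in a pair, or for a known role; acdh-4, acdh-5, acox-1.2, acox-1.6, acs-16, dhs-13, ech-2, ech-3 and ech-7 were named after their values were seen. The members and lists were chosen with earlier results of these data known. Of the 4 matching genes not taken, 1 was called higher in N2 worms on rapamycin and 2 lower on allantoin. In eat-2 controls 1 was called higher, and in eat-2 worms on rapamycin 1 lower. Between rapamycin and allantoin 2 were called higher, and 2 were called negative in the test of the difference. The counts for the 84 genes leave these out. The alternatives were 1 fit of all arrays, a replicate block, the methods' unmoderated test, no dim probe sets, median centring, other probe sets and each array left out.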

Additional observations from a re-analysis of the deposited data

Results flagged for a closer look

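The rapamycin change of 20 named genes differed between the strains, by the test of the difference itself (eat-2 change minus N2 change, limma, adjusted p under 0.05, 12 arrays). Of the 84 genes, 28 passed that test, 33.3%, against 24.4% of all probe sets, and these 20 are the ones among them that the rule for named genes took. The difference was negative for cpt-4 (-2.1), dhs-23 (-2.02), acs-10 (-1.93), acs-6 (-1.77), dhs-16 (-1.57), acdh-6 (-1.49), acs-20 (-1.41), acs-18 (-1.19), dhs-5 (-1.07), dhs-21 (-0.90) and acs-19 (-0.63). It was positive for acs-7 (1.52), dhs-20 (1.51), acox-1.5 (1.36), acs-22 (0.84), ech-6 (0.82), acdh-12 (0.79), dhs-3 (0.78), dhs-17 (0.73) and ech-4 (0.61). Their adjusted p-values lay between 0.00193 for acdh-6 and 0.0485 for acs-22. For acs-19 the change was negative in both strains, -0.90 in eat-2 and -0.27 in N2 worms. For acs-22 it was 0.42 in eat-2 and -0.42 in N2 worms, and for ech-6 it was 0.39 in eat-2 and -0.43 in N2 worms.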

How the results depend on the processing

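No named gene that was called changed sign under any alternative run. Genes at an adjusted p under 0.05 in rapamycin-treated N2 worms against N2 controls numbered 8. One fit of all arrays gave 32, the replicate block 1, the methods' unmoderated test 0, and leaving out single arrays 0 to 23, with 23 without N2 control 2 and 0 without any 1 of the rapamycin arrays. For allantoin against N2 controls the count of 0 became 11 in a fit of all arrays and 0 to 22 with single arrays left out, 22 without N2 control 1. In eat-2 worms on rapamycin the count of 11 became 6 in a fit of all arrays, 4 in the unmoderated test and 5 to 17 with single arrays left out. For the difference between strains the count of 28 became 15 in the unmoderated test and 14 to 32 with single arrays left out. For eat-2 controls against N2 controls it was 0, and 0 to 2 with single arrays left out. At the study's threshold, eat-2 controls had 2 calls, 0 in the unmoderated test and 0 to 3 with single arrays left out. Single arrays left out gave 1 to 7 calls for allantoin, 7 without N2 control 1 and 1 without N2 control 2, and 1 to 3 in eat-2 worms on rapamycin. The cause was not tested. Whether the replicate numbers pair the samples is not settled. Deviations of same-numbered arrays correlated between -0.228 and 0.454 over the pairs of groups. For eat-2 controls against N2 controls they were 0.448, 0.454 and -0.165 for replicates 1, 2 and 3. The calls of acs-6, acs-10, cpt-4, acdh-6 and dhs-16 in N2 worms on rapamycin, of acs-7 on allantoin and of dhs-23 in eat-2 worms on rapamycin were kept under every alternative that could be run; acdh-6 has no value without dim probe sets.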
